A study of Mus musculus with 13 samples.

Results

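Schwann cells are the glia of peripheral nerve, and subcutaneous white adipose tissue (WAT) is threaded by nerve bundles that hold both their myelinating and non-myelinating forms. Myelinating Schwann cells wrap single axons in layers of membrane that are compacted by dedicated proteins, whereas non-myelinating ones ensheath several thin axons, such as sympathetic fibres, without building myelin. The transcription factor Sox10 is required throughout the lineage, and with Egr2 (Krox20) it turns on the genes of compact myelin. The 8 genes described here are markers of these cells and were chosen by name: Pmp22, Mbp, Prx and Ncmap from the myelin sheath, Sox10 and Cdh19 from the glial lineage, and S100b and Ngfr from Schwann cells more broadly. All 8 were found among 34419 genes in the deposited count table, and all 8 were among the 17779 genes with enough counts to be tested.

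The counts came from RNA of whole gluteal WAT, a subcutaneous depot, of male C57BL/6J mice. One group was born and kept at 22°C (n = 7 libraries) and the other at 29°C, or thermoneutrality (n = 6 libraries), and all mice were 13 weeks old at sampling. Mice of both groups lost their posterior hair after weaning and lived alone in cages with little bedding, so the comparison is between temperatures in mice with reduced insulation. The study used these samples to ask how far the response of cultured adipocytes to cool temperature is found in WAT. The labels number the libraries as replicates without stating whether mice were littermates, so p-values measure the spread between these samples. In RNA of a whole tissue, fewer Schwann cells and less RNA per Schwann cell cannot be told apart.

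Library totals ranged from 22356637 to 25245785 counts. They fell into a cluster of 5 libraries with lower totals, all at 22°C (replicates 1 to 5), and a cluster of 8 with higher totals, which held 22°C replicates 6 and 7 and all 6 libraries at 29°C. Of all genes tested, 345 (1.94%) passed P-adj below 0.1 by the edgeR quasi-likelihood test, the threshold used here for a call. The 10 adipocyte markers summed to between 18856 and 28084 CPM (counts scaled to the library total after TMM normalization) at 22°C and between 22945 and 27337 CPM at 29°C. The 12 skeletal muscle markers summed to between 772 and 80911 CPM at 22°C and between 149 and 6669 CPM at 29°C. No 2 libraries held the same counts.

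No change with housing temperature was called for any of the 8 Schwann cell genes. By edgeR, 0 of 8 were called higher at 22°C, against 0.731% of all genes tested, and 0 of 8 were called lower, against 1.21%. DESeq2 also called 0 of 8, against 10.2% in either direction, and 4.65% lower, of the genes it gave a P-adj. Fitted values were lower at 22°C for 7 of 8, against 48.4% of all genes tested, and the median log2 fold change of the 8 (22°C relative to 29°C) was -0.40, against 0.0074 over all genes tested. An unadjusted p below 0.05 was reached by 1 of 8, Sox10, which was lower, against 18.5% of all genes in either direction and 8.2% lower. The ranges of the 2 temperatures overlapped for all 8 genes, while 1.24% of all genes tested had ranges that did not, 0.748% with 22°C lower.

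**Figure D1:**
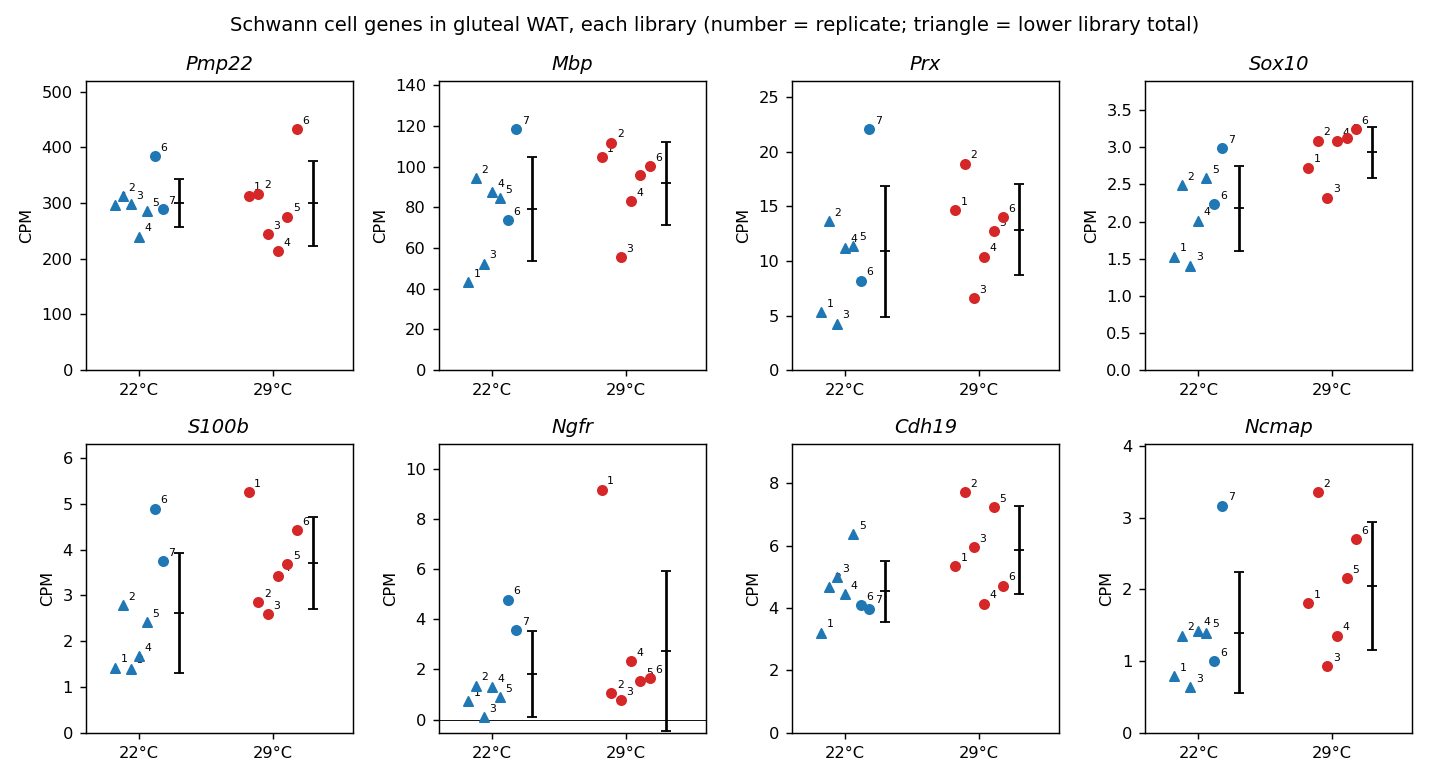
Level of each Schwann cell gene in every library, in CPM on a linear axis, for 22°C (blue, n = 7) and 29°C (red, n = 6). The number beside a point is the replicate, triangles are libraries with lower totals, and the black bar is the mean with SD. Every gene has overlapping ranges, 22°C replicates 1 and 3 are low for Mbp, Prx, Sox10, S100b and Ncmap, and Ngfr has 1 library at 9.17 CPM at 29°C.

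Of the 8 genes, Pmp22 had by far the highest RNA level. It encodes a tetraspan membrane protein of compact myelin that is also made outside nerve. The level of Pmp22 ran from 240 CPM through a median of 296 CPM to 383 CPM at 22°C. At 29°C it ran from 214 CPM through 294 CPM to 432 CPM. Both temperatures thus shared a centre, and replicate 6 was the highest library in each. The mean and SD were 300.2 ± 43.1 CPM over 7 libraries and 299 ± 76.4 CPM over 6. The log2 fold change was 0.0047 with an SE of 0.149 (edgeR P-adj = 0.992). The 95% confidence interval of that difference, -0.32 to 0.33 on the log2 scale, was the narrowest of the 8.

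Mbp, which binds the cytoplasmic faces of the myelin membrane together, had a wider spread. At 22°C its lowest, median and highest levels were 43.2, 84.4 and 118 CPM. At 29°C they were 55.4, 98.0 and 112 CPM. The low libraries were 22°C replicates 1 and 3, at 43.2 and 52.4 CPM, and 29°C replicate 3, and the single highest library was at 22°C. The log2 fold change was -0.21 with an SE of 0.219 (95% confidence interval -0.69 to 0.26, edgeR P-adj = 0.642).

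Prx (periaxin), a scaffold protein that links the outer Schwann cell membrane to the basal lamina, varied over a 5.18-fold range between mice at 22°C. Its lowest, median and highest levels there were 4.26, 11.2 and 22.1 CPM. At 29°C they were 6.61, 13.4 and 18.9 CPM. The libraries at the bottom of Prx were those at the bottom of Mbp, and 22°C replicate 7 was again the highest. The log2 fold change was -0.24 with an SE of 0.342 (95% confidence interval -0.98 to 0.49, edgeR P-adj = 0.747).

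Ncmap, a membrane protein of non-compact myelin, shared its 3 lowest libraries, 22°C replicates 1 and 3 and 29°C replicate 3, with Mbp and Prx. It was found at 0.634, 1.35 and 3.17 CPM (lowest, median, highest) at 22°C and at 0.928, 1.98 and 3.36 CPM at 29°C. The highest value at 22°C, again replicate 7, stood well above the next, 1.43 CPM in replicate 4. The fitted difference was the second largest of the 8, at -0.55 on the log2 scale with an SE of 0.369, and its 95% confidence interval ran from -1.34 to 0.24 (edgeR P-adj = 0.450).

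Sox10 came closest to a call together with Cdh19. At 22°C Sox10 was measured at 1.40, 2.23 and 2.98 CPM (lowest, median, highest). At 29°C it was measured at 2.32, 3.09 and 3.24 CPM. At 22°C 4 of 7 libraries were below the lowest library at 29°C, and the other 3 were within the range at 29°C. The mean and SD were 2.18 ± 0.572 CPM over the 7 libraries at the cooler temperature and 2.93 ± 0.346 CPM over the other 6. Its log2 fold change of -0.43 had an SE of 0.174 and a 95% confidence interval of -0.80 to -0.05, and it did not pass the correction over all genes (edgeR unadjusted p = 0.0287, P-adj = 0.219). Of the 4 libraries below the range at 29°C, replicates 1, 3 and 4 were in the cluster with lower totals, and among the 8 libraries with higher totals the log2 fold change was -0.18.

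Cdh19, a cadherin that marks glial precursors and Schwann cells, had an order of libraries that differed from those of Mbp, Prx, Sox10 and Ncmap. At 22°C its lowest, median and highest levels were 3.22, 4.45 and 6.36 CPM. At 29°C they were 4.14, 5.65 and 7.72 CPM. Its lowest library, 22°C replicate 1, was also low for Mbp and Sox10, whereas 22°C replicate 7, high for Mbp, Prx and Ncmap, was among the lowest at 3.98 CPM. The log2 fold change was -0.37 with an SE of 0.176 (95% confidence interval -0.74 to 0.01, edgeR P-adj = 0.287), and -0.55 among the libraries with higher totals.

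S100b, a calcium-binding protein of Schwann cells that adipocytes can also make, was at 1.40, 2.42 and 4.89 CPM (lowest, median, highest) at 22°C. At 29°C it was at 2.59, 3.55 and 5.26 CPM. Within the 22°C group, replicates 6 and 7, which have higher totals, were at 4.89 and 3.75 CPM, and the 5 libraries with lower totals were between 1.40 and 2.79 CPM. The log2 fold change was -0.49 with an SE of 0.299 (95% confidence interval -1.14 to 0.15, edgeR P-adj = 0.400).

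Ngfr, the p75 neurotrophin receptor, which is high on non-myelinating and denervated Schwann cells and also present on some stromal cells, had the largest spread of the 8. At 22°C it ran from 0.0906 CPM, which is 2 counts and under the limit of 3 counts that a count of 0 allows, through 1.30 CPM to 4.78 CPM. At 29°C it ran from 0.773 CPM through 1.58 CPM to 9.17 CPM. The coefficient of variation was 93.5% at 22°C and 116% at 29°C, against 14.3% and 25.5% for Pmp22. A single library, 29°C replicate 1 with 239 counts, lay far above the rest of its group, where the next was 2.33 CPM. The log2 fold change was -0.59 with an SE of 0.715 (95% confidence interval -2.13 to 0.95, edgeR P-adj = 0.705), and 0.32 without that library.

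The direction of 5 of the 7 lower values depended on the libraries with lower totals. Among the 8 libraries with higher totals, where 22°C had 2 libraries, the log2 fold change was 0.06 for Mbp, 0.23 for Prx, 0.21 for S100b, 0.59 for Ngfr and 0.02 for Ncmap, and the 95% confidence intervals of all 8 genes included 0. Library total and temperature cannot be told apart beyond those 8 libraries, since no library at 29°C had a lower total. Leaving out each of the 13 libraries in turn, 6 of the 8 genes (Mbp, Prx, Sox10, S100b, Cdh19 and Ncmap) had lower fitted values at 22°C each time, and none of the 8 was called by edgeR. Over these fits the size was less stable than the sign, but each fit kept most of the libraries with lower totals. Leaving out 22°C replicate 7 gave log2 fold changes of -0.34 for Mbp, -0.51 for Prx and -0.89 for Ncmap. At the other end, Mbp was at -0.11 when 22°C replicate 1 was left out, and Prx and Ncmap were at -0.10 and -0.35 when 29°C replicate 2 was.

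**Figure D2:**
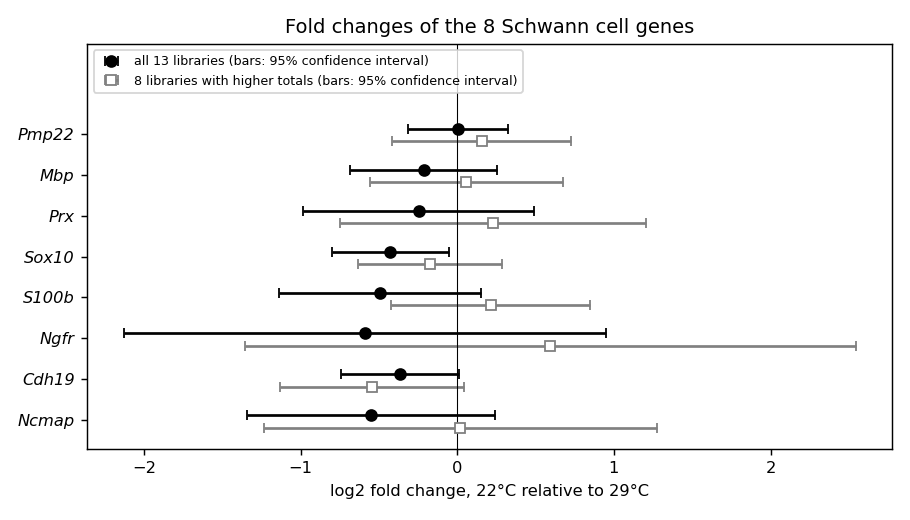
Log2 fold change (22°C relative to 29°C) of each Schwann cell gene, from all 13 libraries (black circles) and from the 8 libraries with higher totals (open squares), both with 95% confidence intervals. Except for Sox10 over all libraries (-0.80 to -0.05), every interval crosses 0, and Mbp, Prx, S100b, Ngfr and Ncmap lie on the other side of 0 in the smaller set.

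Levels were compared between genes per kilobase (kb) of merged exons in the GENCODE M21 annotation, since CPM grows with transcript length. Merged exons pool all annotated transcripts of a gene (8469 bases for Mbp), so a level is understated where the transcripts present are shorter. Which transcripts were present was not tested. On this scale the median over 13 libraries was 126 CPM per kb for Pmp22, 10.3 for Mbp, 2.04 for Prx, 1.92 for S100b, 1.10 for Cdh19, 0.848 for Sox10, 0.628 for Ncmap and 0.392 for Ngfr. Pmp22 was above Mbp, and Mbp above Prx, in 13 of 13 libraries and with no overlap of their ranges. Below these the order was less firm. Prx was above S100b in 5 of 13 libraries, S100b above Cdh19 in 12, Cdh19 above Sox10 in 11, Sox10 above Ncmap in 10 and Ncmap above Ngfr in 10, and the ranges of each such pair overlapped. Erbb3, the neuregulin receptor of the Schwann cell lineage, was at a median of 0.526 CPM per kb and had counts in every library.

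**Figure D3:**
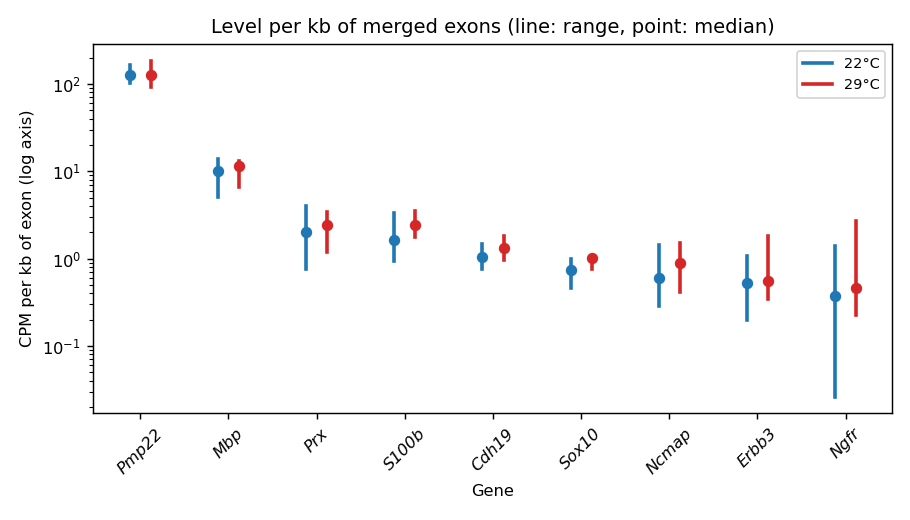
Level per kb of merged exons on a log axis, in order of the median over all libraries, for the 8 Schwann cell genes with Erbb3 beside them. Lines give the range and points the median at 22°C (blue, n = 7) and 29°C (red, n = 6). Pmp22 and Mbp stand apart from the genes below them at both temperatures, while the ranges from Prx to Ngfr overlap with their neighbours.

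Although none of the 8 genes passed the threshold between temperatures, several of them rose and fell together from mouse to mouse. Pearson's r of log2 CPM was computed over 13 libraries for all 28 pairs, with two-sided permutation tests of 100000 resamples, whose smallest possible p is 1e-05, and Benjamini-Hochberg adjustment over the 28 pairs. Of the 28 pairs, 26 had an r above 0 and 9 passed an adjusted p of 0.05. All 9 were above 0 within each temperature taken alone.

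The tightest pair was Mbp and Prx, with an r of 0.96 and a Spearman's rho of 0.98 (permutation adjusted p = 0.00014 for both). Prx and Ncmap followed with an r of 0.94 and a rho of 0.91, and Mbp and Ncmap with an r of 0.89 and a rho of 0.94 (permutation adjusted p at most 0.00035). All 3 genes act in the myelin sheath. Without 22°C replicates 1 and 3, the libraries farthest from the median, r was 0.97 for Mbp and Prx, 0.90 for Prx and Ncmap and 0.87 for Mbp and Ncmap. Sox10 joined them with an r of 0.84 with Prx, 0.84 with Ncmap and 0.83 with Mbp (permutation adjusted p = 0.0025, 0.0017 and 0.0045), and with a rho of 0.73, 0.81 and 0.74 (permutation adjusted p = 0.026, 0.0062 and 0.026). Without 22°C replicates 1 and 3 these values of r were 0.58, 0.73 and 0.58. All 6 pairs among Mbp, Prx, Ncmap and Sox10 passed, and their lowest r was 0.88 at 22°C, 0.71 at 29°C and 0.71 among the libraries with higher totals.

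S100b and Ngfr formed another pair, with an r of 0.83 and a rho of 0.92 (permutation adjusted p = 0.0015 and 0.00028). It was present at both temperatures, with an r of 0.85 at 22°C and 0.86 at 29°C, and among the libraries with higher totals (0.86). S100b also passed with Sox10 at an r of 0.78 and with Mbp at 0.66 (permutation adjusted p = 0.0059 and 0.045), but its adjusted p for rho was 0.076 with Sox10 and 0.087 with Mbp by the same permutation test. Both of these rested on few libraries. Without 22°C replicates 1 and 3, r was 0.48 with Sox10 and 0.25 with Mbp, and among the libraries with higher totals it was -0.05 and 0.32.

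Pmp22 and Cdh19 stood apart from the other glial genes. The 7 pairs with Pmp22 had values of r between -0.04 and 0.40, and those with Cdh19 between -0.15 and 0.42, and none of them passed. Pmp22, the most abundant of the 8 genes, thus showed no detectable relation to Mbp (r = 0.18, permutation adjusted p = 0.68), the other abundant myelin gene.

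**Figure D4:**
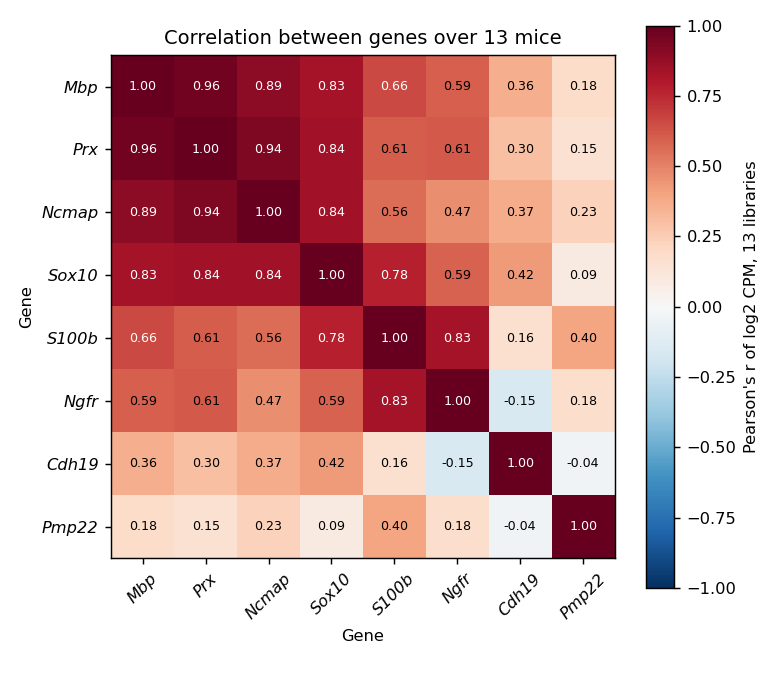
Pearson's r of log2 CPM over 13 libraries for each pair of the 8 Schwann cell genes, printed in each cell and shaded from blue (-1) to red (1). Mbp, Prx, Ncmap and Sox10 form a block with r from 0.83 to 0.96, S100b and Ngfr reach 0.83 with each other, and the rows of Cdh19 and Pmp22 stay at or below 0.42.

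The genes most like each member among all genes tested were named by the highest r of log2 CPM over the 13 libraries, as a description with no test. Among the 3 genes most like Mbp were Sorcs1, a sortilin family receptor (r = 0.97), and Mal, a proteolipid of myelin membrane rafts (0.92), and Mal was also among those most like Prx (0.95). Among the 3 most like Ncmap were Cldn19, a claudin of Schwann cell junctions (0.92), and Gjc3, a glial connexin (0.89). Sox10 was most like Plekha4 (0.94) and Ugt8a, the enzyme that makes the myelin lipid galactosylceramide (0.91). S100b was most like Gpm6b, a proteolipid family membrane protein of glia and neurons (0.94). Nedd8 (0.93) and Gm15519 (0.92), which are on none of the gene lists used here, followed closely. Of the 10 genes most like each member, 6 for Prx, 6 for Ncmap, 5 for Mbp and 3 for Sox10 were on the list of 18 other genes of myelinating Schwann cells, and 0 for Pmp22, S100b, Ngfr and Cdh19.

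For the remaining members the closest genes were not glial ones. Pmp22 was most like Lamtor4 (r = 0.93), a lysosomal scaffold subunit, and Bbc3 (0.92), a pro-apoptotic BCL2 family gene. Ngfr was most like Sec14l1 (0.93), and Eef1b2, a translation elongation factor subunit, was also among the 3 most like it (0.88). Cdh19 was most like Fam229b (0.91), Sag (0.90) and Osmr, the oncostatin M receptor (0.86). With 17779 genes to choose from and 13 libraries, values near 0.9 were reached for each member.

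**Figure D5:**
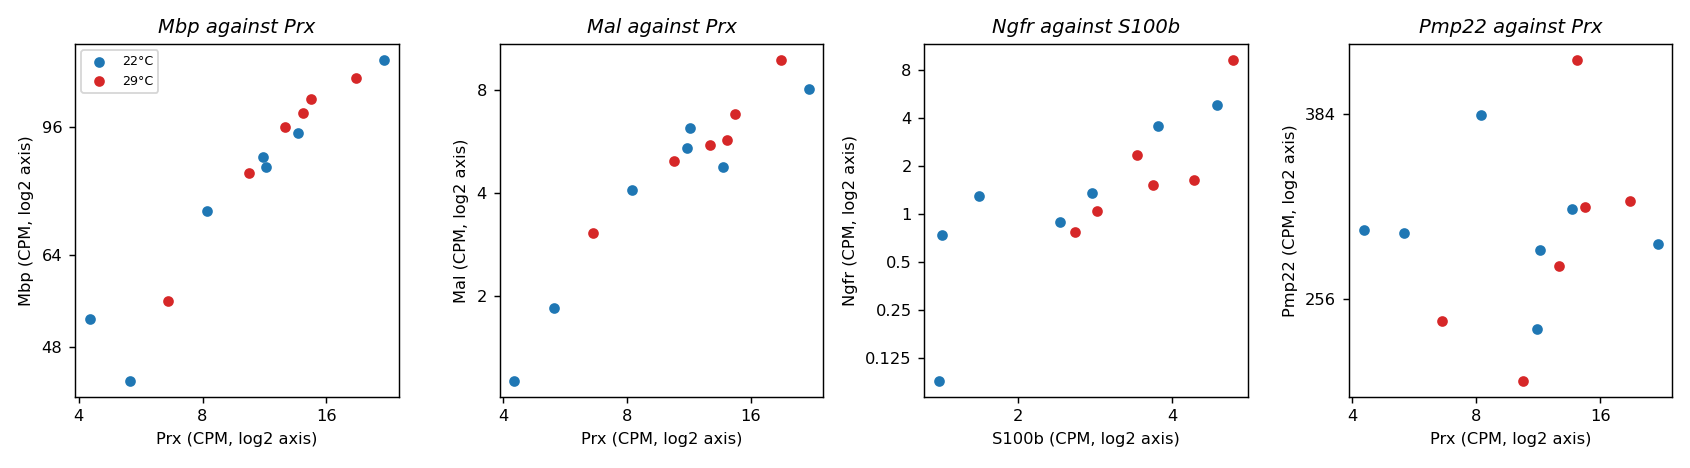
Each point is a library at 22°C (blue, n = 7) or 29°C (red, n = 6), in CPM on log2 axes, for Mbp against Prx, Mal against Prx, Ngfr against S100b and Pmp22 against Prx. The first 2 panels fall close to a line (r = 0.96 and 0.95), the third has r = 0.83 with 29°C replicate 1 at the top right, and the last has r = 0.15.

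The mean z-score of the 8 genes summarised which mice were high or low. It was lowest in 22°C replicates 3 (-1.41) and 1 (-1.36) and 29°C replicate 3 (-0.59), and highest in 29°C replicates 2 (0.83), 6 (0.82) and 1 (0.78) and 22°C replicate 7 (0.70). Muscle RNA did not follow this order. The 2 libraries with the highest muscle score (mean log2 CPM of the muscle markers), 22°C replicates 7 (11.9) and 1 (11.8), were the highest and the second lowest for the glial score among the 22°C mice. For comparisons with the 8 genes, each list had a score that was the mean z-score of log2 CPM of its tested genes. With this score of the muscle list, r was between -0.47 and 0.19. By r, 0 of 8 passed in permutation tests adjusted over 96 comparisons of the genes with list scores. The lowest rho with the muscle list was -0.61, for Cdh19, which did not pass (permutation adjusted p = 0.20).

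In the same 96 comparisons, 7 passed by Pearson's r, and all 7 were with lists of Schwann cell genes. The score of the other myelinating genes had an r of 0.96 with Prx, 0.95 with Ncmap, 0.95 with Mbp and 0.84 with Sox10. The score of the non-myelinating and pan Schwann cell genes had an r of 0.84 with Sox10, 0.77 with Prx and 0.77 with Ncmap. By Spearman's rho the myelinating list passed with the same 4 genes, while the non-myelinating list passed with none (permutation adjusted p = 0.10, 0.165 and 0.070), and within 29°C its r was 0.41, 0.41 and 0.37. None of 56 comparisons with adipocyte, fibroblast, endothelium, lymphocyte, epithelium, melanocyte or muscle markers passed. The highest of them that reached an unadjusted permutation p below 0.05 were Ngfr and S100b with the fibroblast score (r = 0.67 and 0.64) and Cdh19 with the adipocyte score (0.62). The part of these cell types in the levels of the 3 genes was not tested.

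The promoters of Prx and Ncmap are shown because these genes rose and fell together and because theirs were the windows that held the GCGTGGG letters, the core bound by zinc fingers of the EGR family, to which Egr2 belongs. The windows are the 250 bases before an annotated transcript start in RefSeq on GRCm38.p6, 5′ to 3′ on the strand of the gene, with the match in capitals. They are Prx at chr7:27499074-27499323 on the plus strand, where the match is on the opposite strand, and an Ncmap start at chr4:135385673-135385922 on the minus strand. No GENCODE exon of the gene overlaps either window. The other Ncmap window, at chr4:135398228-135398477 on the minus strand, held no match and is not shown.
Prx: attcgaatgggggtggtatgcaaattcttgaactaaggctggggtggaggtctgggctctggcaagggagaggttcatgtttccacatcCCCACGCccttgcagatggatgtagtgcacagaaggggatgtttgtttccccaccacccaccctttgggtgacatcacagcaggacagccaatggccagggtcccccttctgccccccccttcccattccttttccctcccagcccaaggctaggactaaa
Ncmap: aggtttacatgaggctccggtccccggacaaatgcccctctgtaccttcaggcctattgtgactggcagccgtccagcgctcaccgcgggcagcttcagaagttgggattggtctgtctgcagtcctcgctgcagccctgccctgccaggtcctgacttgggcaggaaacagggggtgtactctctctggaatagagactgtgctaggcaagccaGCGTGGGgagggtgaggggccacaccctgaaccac
Searched on both strands, GCGTGGG was in 2 of 9 windows of Pmp22, Prx, S100b, Ngfr and Ncmap and in 4.3% of 32851 windows of all genes. The letters ACAAAG and ACAATG, as bound by SOX proteins, were in 0 of these 9 windows and in 16.5% and 10.7% of all windows. These are matches of letters within 1 window length, and say nothing of binding. Egr2 itself was at 3.38 CPM at 22°C and 3.73 CPM at 29°C on average, and its r with Prx was 0.31.

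The wider list of myelinating Schwann cell genes gave 0 calls as well. Of 18 listed, 16 were tested. By edgeR 0 were called and 0 had an unadjusted p below 0.05, and DESeq2 called 0. Fitted values were lower at 22°C for 14, against 48.4% of all genes tested. The median log2 fold change of the 16 was -0.19, against 0.0074 over all genes tested. Cnp, an enzyme of non-compact myelin that many cells make, averaged 35.1 CPM at 22°C and 35.5 CPM at 29°C. Drp2, a dystrophin-related partner of periaxin, averaged 7.89 and 8.12 CPM. With Prx, 13 of the 16 had an r over 0.5, and the exceptions were Egr2, Pou3f1 and Fa2h.

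Of 19 other non-myelinating and pan Schwann cell genes, 16 were tested, 10 had lower and 6 higher fitted values at 22°C, and the median log2 fold change was -0.11. Fitted values were lower for 48.4% of all genes tested. By edgeR 1 was called and 3 had an unadjusted p below 0.05 (Scn7a, Matn2 and Gpm6b), and DESeq2 called 2, Matn2 and Gpm6b (-0.39 on the log2 scale, DESeq2 P-adj = 0.0659, edgeR P-adj = 0.168). Of all genes tested, edgeR called 1.94% and 18.5% had such an unadjusted p. DESeq2 called 10.2% of the genes it gave a P-adj. The list held the only nerve or glial gene called by edgeR, Matn2 (matrilin 2), an adaptor protein of the extracellular matrix that Schwann cells and other stromal cells make. It was between 45.0 and 66.0 CPM in the 22°C group and between 66.9 and 107 CPM in the other. Its groups thus did not overlap, as was so for 1.24% of all genes tested. Its log2 fold change was -0.56 with an SE of 0.119 (edgeR P-adj = 0.0703), and the call was lost without 29°C replicate 1, 2, 3 or 6 (P-adj 0.118, 0.144, 0.167 and 0.109). With a term for the lower-total cluster in the model it was -0.56 with an edgeR P-adj of 0.278. Matn2 had an r of 0.20 with Prx and 0.44 with Sox10. Scn7a, a sodium channel of non-myelinating Schwann cells, averaged 258 CPM at 22°C and 312 CPM at 29°C (log2 fold change -0.27, SE 0.120, edgeR P-adj = 0.252), and Art3, a mono-ADP-ribosyltransferase gene, averaged 266 and 304 CPM (edgeR P-adj = 0.309).

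Receptors and ligands that act on Schwann cells and axons followed no single direction. Of 18 listed, 13 were tested, 5 had higher and 8 lower fitted values at 22°C, and their median was -0.16 on the log2 scale. By edgeR 0 were called and 3 had an unadjusted p below 0.05, Ntf3, Ntrk2 and Ntrk3, and DESeq2 called 3. Of all genes tested, 48.4% had lower fitted values and 18.5% such an unadjusted p. DESeq2 called 10.2% of the genes it gave a P-adj. Ntrk3, the receptor for neurotrophin 3, averaged 13.6 CPM at 22°C and 7.72 CPM at 29°C, a log2 fold change of 0.81 with an SE of 0.223 (edgeR P-adj = 0.113, DESeq2 P-adj = 0.0142). Its ligand Ntf3 averaged 1.90 and 2.80 CPM, a log2 fold change of -0.55 with an SE of 0.189 (edgeR P-adj = 0.172, DESeq2 P-adj = 0.0675). Bdnf was the other gene DESeq2 called, after it had replaced a count of this gene as extreme, with -0.93 on the log2 scale (P-adj = 0.0068), where edgeR, which kept the count, gave -0.16 (P-adj = 0.902). Sort1, a co-receptor that works with p75, averaged 674 and 690.2 CPM, and Ntrk2 averaged 342 and 431 CPM (edgeR P-adj = 0.239). Sorl1, another sortilin family receptor, averaged 45.7 and 25.3 CPM (edgeR P-adj = 0.384).

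Most RNA of a neuron is in its cell body, outside the depot. Transcripts of the neuronal and sympathetic list were rare here, and which cells made them was not tested. Of 17 neuronal and sympathetic genes, 7 were tested, with 0 called by edgeR, 0 at an unadjusted p below 0.05, 0 called by DESeq2 and a median of -0.03 on the log2 scale. Dbh, the enzyme that makes noradrenaline, had 4 counts over all 13 libraries, and Th, which starts catecholamine synthesis, had 84. Those of Th were uneven, with 0 counts in 5 libraries and 2.11 CPM in the highest. The highest of the list was Uchl1, at 5.25 CPM at 22°C and 4.14 CPM at 29°C on average, and Stmn2 and Slc18a2 averaged below 3 CPM. Of 11 genes of the perineurial and endoneurial cells that surround nerve fibres, 10 were tested. By edgeR 0 of these were called and 3 had an unadjusted p below 0.05 (Slc2a1, Moxd1 and Ptch1), against 18.5% of all genes tested. The median log2 fold change was -0.21. DESeq2 called 2 of them, Ptch1 at -0.37 and Moxd1 at 2.34 on the log2 scale, against 10.2% of the genes it gave a P-adj. The hedgehog receptor Ptch1 averaged 34.4 CPM at 22°C and 44.3 CPM at 29°C (edgeR P-adj = 0.155). Itgb4, an integrin that Schwann cells also use to bind laminin, averaged 19.2 and 22.3 CPM. It had an r of 0.84 with Sox10, the highest of this list, whose values ran down to -0.34 for Moxd1. The score of the list had an r of 0.49 with Sox10 and did not pass (permutation adjusted p = 0.32).

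Other cells that share a member were counted in the same fit. Of all genes tested, edgeR called 1.94%, 18.5% had an unadjusted p below 0.05 and 48.4% had lower fitted values. DESeq2 called 10.2% of the genes it gave a P-adj. Melanocytes, which also depend on Sox10, had 4 of 8 markers tested, 0 called by edgeR (0 at an unadjusted p below 0.05, 0 by DESeq2), and a summed level between 22.7 and 56.7 CPM at 22°C and between 20.2 and 45.3 CPM at 29°C. Their score had an r of -0.01 with Sox10. The luminal and basal epithelium had 8 of 12 markers tested, 0 called by edgeR (0 at an unadjusted p below 0.05, 0 by DESeq2), a median log2 fold change of -0.72, a summed level between 74.5 and 380.4 CPM at 22°C and between 145 and 478 CPM at 29°C, and an r of 0.53 with Sox10 and 0.50 with Ngfr. Fibroblast markers had 10 of 10 tested and 0 called by edgeR (2 at an unadjusted p below 0.05, 1 by DESeq2), a median of -0.13 on the log2 scale and summed levels of 4798 to 8727 CPM at 22°C and 6720 to 9545 CPM at 29°C. Endothelium markers had 0 of 10 called by edgeR (1 at an unadjusted p below 0.05, 0 by DESeq2), a median of -0.09 and an r of 0.26 with Prx. Lymphocytes, in which a form of Mbp is made, had all 10 markers higher at 22°C with a median of 0.71. By edgeR 1 of them was called (Cd3e), a call that 10 of the 13 fits with 1 library left out did not make, and DESeq2 called 0 and gave Cd3e no P-adj. Their score had an r of 0.12 with Mbp. Adipocyte markers had 1 of 10 called by edgeR and by DESeq2 (Lep, lower, a call edgeR did not make without 29°C replicate 1 or 2), a median of -0.16 and an r of 0.08 with S100b. Muscle markers had 12 of 12 higher fitted values at 22°C with a median of 2.93 and 0 called by edgeR (5 at an unadjusted p below 0.05, 5 by DESeq2). No gene on these lists was at 0 in every library, and the part of these cells in the levels of the 8 genes was not tested.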

How the data were processed

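RNA-seq of 13 gluteal WAT libraries was used, grouped by the housing temperature in the labels. Per the labels, the authors used FastQC, STAR 2.7.5a, featureCounts and DESeq2 and name GRCm39; strand setting and annotation release are not given in the sources used here, so reads of overlapping genes cannot be assigned with certainty. The authors deposited raw counts per gene and regularized log2 values from DESeq2, the latter used in 1 alternative. Symbols were matched by identifier without its version for 34006 of 34419 genes, and lengths came from GENCODE M21.

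Counts were tested with edgeR 4.0.16 (R 4.3.3): TMM, filterByExpr, quasi-likelihood F test, Benjamini-Hochberg over all genes tested, no covariate. CPM use TMM-scaled totals and log2 CPM a prior count of 2. A count of 0 allows 3 counts, or 0.112 to 0.158 CPM, for counting error only. The alternatives included DESeq2 1.42.0, limma 3.58.1, other filters and scalings, muscle and total covariates, an exact permutation test per gene, and leaving out each library. Correlations used SciPy 1.17.1. The scripts were tested on simulated data. The chi-square per gene between 2 libraries was at least 15.5 (78 pairs). The members and gene lists were chosen with earlier results of these data known. Genes named are the members, called and highest genes of each list, and the genes most like each member; Itgb4, Egr2, Ntf3, Ntrk3, Bdnf, Moxd1 and others outside this rule were picked with their values in view. A few listed genes enter the counts and are not reported here.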

Additional observations from a re-analysis of the deposited data

Results flagged for a closer look

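Of 16 groups checked (8 genes at 2 temperatures), 2 held a library whose gap to the nearest other library exceeded Dixon's 95% critical value. Chance marks about 1 in 20 groups. The first was Ngfr in 29°C replicate 1, at 9.17 CPM. That library was also the highest of all 13 for S100b, at 5.26 CPM, and for Gpm6b, at 19.7 CPM, while its Mbp level of 105 CPM and its Cdh19 level of 5.34 CPM were inside the range of its group. The second was Ncmap in 22°C replicate 7, at 3.17 CPM. The same library was the highest of the 22°C group for Mbp (118 CPM), Prx (22.1 CPM) and Sox10 (2.98 CPM), and its muscle score of 11.9 was the highest of all libraries. The cause of neither was tested.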

How the results depend on the processing

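The 8 genes had 0 calls under every alternative tried. With a term for the cluster of totals, 5 log2 fold changes turned higher at 22°C: 0.064 for Mbp, 0.23 for Prx, 0.22 for S100b, 0.60 for Ngfr and 0.019 for Ncmap. Among the libraries with higher totals they were 0.059, 0.23, 0.21, 0.59 and 0.018. Pmp22 was -0.0012 without the filter on low counts and between -0.076 and 0.14 with each library left out. Ngfr was between -1.05 and 0.32, the latter without 29°C replicate 1. The r of Sox10 and S100b was -0.055 among the libraries with higher totals, the only reversal among 162 alternatives of the 9 pairs that passed.

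The nerve and glial lists held 1 edgeR call, 7 with DESeq2, 0 with no filter, 0 with the muscle score as a covariate, 0 with the total cluster as a covariate, and 0 (without 29°C replicate 1, 2, 3 or 6) to 3 (without 22°C replicate 4) with a library left out. Over all genes 345 calls became 1676 with DESeq2, 42 without the filter, 46 with the muscle score, 4 with the total cluster, 8 among the libraries with higher totals, 0 by the exact permutation test, and 32 (without 29°C replicate 3) to 652 (without 22°C replicate 6). The cause was not tested.

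The labels give both groups replicates 1 to 6 and state no pairing, so the main fit used none. Same-numbered libraries deviated together in part: r of their deviations was 0.51, 0.41, 0.35, 0.49, 0.05 and 0.39. Among libraries at 22°C, 4 of 6 correlated best with their own number. Whether the numbers mark a pairing was not tested. A replicate block over these 12 libraries, which leaves out 22°C replicate 7, gave 263 calls against 184 without it. With the block the log2 fold change was 0.04 for Pmp22, -0.35 for Mbp, -0.55 for Prx, -0.54 for Sox10, -0.69 for S100b, -0.81 for Ngfr, -0.33 for Cdh19 and -0.84 for Ncmap, and the lowest edgeR P-adj was 0.121, for Sox10. An unadjusted edgeR p below 0.05 was reached by 5 of 8, all lower (0.0035 for Sox10, 0.0063 for Ncmap, 0.020 for Prx, 0.032 for S100b and 0.044 for Cdh19). The share of all genes that reached it in the fit with the block is not given. This count therefore cannot be set against a background, and the shares given for the main fit do not apply to it.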

Other observations

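The 10 genes most like the mean z-score of the 8 members included Plekha4 (r = 0.94), Ugt8a, Mal, Cldn19, Mir6972, Sorcs1, Spp1, Gpr37l1 and Spc25 (0.87). Spp1 (osteopontin), a secreted phosphoprotein known from macrophages and bone, averaged 2.14 CPM and was among the 3 genes most like Prx (r = 0.92 over 13 libraries, 0.91 after the mean of each temperature was removed). Gpr37l1, a G protein-coupled receptor of glia, averaged 1.06 CPM with an r of 0.87.

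In the non-myelinating list, genes differed in how they followed the myelin genes. Sostdc1, a secreted antagonist of BMP and Wnt signals, had an r of 0.85 with both Prx and Sox10. Scn7a had -0.19 and 0.05, and Gfra3, a receptor for artemin, -0.03 and 0.00. Erbb3, the neuregulin receptor of Schwann cells, had an r of 0.49 with Prx, and its highest library, 29°C replicate 4 at 10.8 CPM, was not among the highest for Mbp or Prx. These values are descriptions over 13 libraries with no test.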
